A study of Mus musculus with 48 samples.

Results

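The genes of oxidative phosphorylation were followed through mouse liver and visceral white fat on 2 diets. They were taken by symbol from the count table. The pattern covered the Nduf, Sdh, Uqcr, Cyc1, Cox4 to Cox8 and Atp5 genes of the nucleus and the mt-Nd, mt-Co, mt-Atp and mt-Cytb genes of the mitochondrial DNA. It found 109 symbols, of which the pseudogenes Atp5l-ps1, Atp5l-ps2 and Atp5l2-ps and the muscle and brown fat genes Cox7a1 and Cox8b were left out. The 104 that remained, of 30055 symbols in all, were 91 nuclear and 13 mitochondrial genes, and the pattern used no measured value. By role they were 7 core subunits, 31 accessory subunits and 7 assembly factors of complex I, 4 subunits of complex II, 9 of complex III, 16 complex IV genes, 17 Atp5 genes, and the 13 mt- genes. Of the Atp5 genes 15 are ATP synthase subunits, while Atp5s and Atp5sl, which RefSeq names Dmac2l and Dmac2, are not structural subunits of it, and Dmac2 is known as an assembly factor of complex I. Ndufa4 and Ndufa4l2 were classed by symbol with complex I, although Ndufa4 is also described as a subunit of complex IV.

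Complexes I to IV of the inner mitochondrial membrane pass electrons from NADH and succinate to oxygen and, except for complex II, pump protons. ATP synthase uses the returning protons to make ATP. Most subunits are encoded in the nucleus, while the core membrane subunits of complexes I, III, IV and ATP synthase come from polycistronic transcripts of the mitochondrial DNA, so that each complex except complex II needs both genomes. In the liver this pathway serves the oxidation of fatty acids, and in white fat cells it supports lipid synthesis and storage.

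The animals were C57BL6/J mice, and the labels name no transgene or knockout. From 8 weeks of age they received a high-fat diet (HFD) with 45% of its calories as fat, or regular chow (RD), for 2 or 12 weeks. One cohort was studied at 2 weeks and another at 12 weeks, so weeks on diet, age and cohort cannot be told apart. Liver and visceral white fat of females (F) and males (M) gave 16 groups of 3 libraries: HFD and RD, at each time, in each sex and tissue. The labels do not say that each library of a group came from a separate animal, and the p-values therefore measure the spread between these libraries.

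The 48 libraries held 50888675 to 80062332 estimated counts each in liver, with a median of 69942497, and 44698220 to 105409435 in fat, with a median of 63157493. Levels are in CPM, counts scaled to the size of the library and by the trimmed mean of M-values (TMM) within each tissue, and differences are log2 fold changes from edgeR's quasi-likelihood test with an approximate standard error (SE), the size of the log2 fold change over the square root of its F statistic. A gene was called when its p, adjusted by the Benjamini-Hochberg method over all genes tested in that comparison, was under 0.05. In liver 15897 genes passed the filter on low counts, among them 87 of the 91 nuclear genes and all 13 mt- genes, and in fat 18325 genes passed, among them all 104. The 4 that failed in liver were the tissue-restricted complex IV genes Cox4i2, Cox6a2, Cox7b2 and Cox8c. The 6 hepatocyte markers summed to 60350 to 130700 CPM per liver library and to 686 to 4258 CPM in fat, and the 6 adipocyte markers to 15.8 to 88.1 CPM in liver and to 5500 to 22000 CPM in fat. In these bulk samples, fewer cells of a type and less RNA per cell cannot be told apart.

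Promoters of 74 of the 91 nuclear genes were matched in RefSeq (GRCm38.p6), as windows of 300 bases around the annotated start, and were searched on both strands. The palindromic NRF1 motif was found in 9.46% of them and in 0.981% of all 27025 promoters in the table. The YY1 motif AAGATGGCG was found in 9.46% and 1.48%, the GABPA (NRF2) core CCGGAAG in 21.6% and 9.14%, and the estrogen-related receptor motif TCAAGGTCA in 2.70% and 0.407%. The CCAAT box, a common promoter element, was found in 44.6% of these genes and in 38.0% of all promoters. A match describes the letters of the window only. The windows of 4 genes to which the results return are shown, in lower case with the motif matches of either strand in capitals. Sdhb, Atp5h and Cox6a1, of complexes II, V and IV, were called in male fat. Ndufaf4 was called in female against male liver.
Sdhb (chr4:140961021-140961320, plus strand): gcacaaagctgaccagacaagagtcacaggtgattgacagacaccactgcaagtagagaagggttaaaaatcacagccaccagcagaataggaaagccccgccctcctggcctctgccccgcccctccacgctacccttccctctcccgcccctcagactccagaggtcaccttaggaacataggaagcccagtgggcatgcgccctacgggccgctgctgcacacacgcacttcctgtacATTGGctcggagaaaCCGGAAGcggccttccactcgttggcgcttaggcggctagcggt
Atp5h (chr11:115419870-115420169, minus strand): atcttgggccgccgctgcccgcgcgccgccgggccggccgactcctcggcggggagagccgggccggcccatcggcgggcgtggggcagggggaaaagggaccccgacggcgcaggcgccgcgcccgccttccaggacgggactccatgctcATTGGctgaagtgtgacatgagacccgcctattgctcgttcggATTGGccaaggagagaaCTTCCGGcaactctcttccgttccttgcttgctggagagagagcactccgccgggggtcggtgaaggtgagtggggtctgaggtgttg
Cox6a1 (chr5:115348909-115349208, minus strand): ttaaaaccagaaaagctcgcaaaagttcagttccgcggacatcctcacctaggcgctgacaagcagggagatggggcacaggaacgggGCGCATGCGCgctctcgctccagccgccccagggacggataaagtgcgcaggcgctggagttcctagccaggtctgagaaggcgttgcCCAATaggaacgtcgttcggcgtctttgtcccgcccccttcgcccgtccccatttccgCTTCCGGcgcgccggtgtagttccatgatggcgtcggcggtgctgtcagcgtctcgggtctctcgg
Ndufaf4 (chr4:24897833-24898132, plus strand): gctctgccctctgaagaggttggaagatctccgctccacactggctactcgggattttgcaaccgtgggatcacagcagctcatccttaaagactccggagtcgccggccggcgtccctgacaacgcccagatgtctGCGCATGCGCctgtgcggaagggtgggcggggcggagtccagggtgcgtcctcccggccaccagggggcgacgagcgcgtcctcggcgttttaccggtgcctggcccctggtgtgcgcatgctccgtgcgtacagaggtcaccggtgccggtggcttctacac
The capitals mark an inverted CCAAT box and a GABPA core in Sdhb, 2 inverted CCAAT boxes and a GABPA core in Atp5h, an NRF1 motif, a CCAAT box and a GABPA core in Cox6a1, and a lone NRF1 motif in Ndufaf4.

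The mitochondrial genes gave most of the signal. The 13 mt- genes took 2.98% to 13.4% of a liver library, with a median of 8.13%, and 2.15% to 10.8% of a fat library, with a median of 6.62%. The 91 nuclear genes took 0.626% to 1.16% of a liver library and 0.808% to 2.14% of a fat library. Per kilobase of transcript, mt-Co1, the catalytic core of complex IV, had the highest median level, at 15670 CPM per kb in liver and 13210 CPM per kb in fat. The lowest mt- gene was mt-Nd3, a small complex I subunit, at 1461 CPM per kb in liver and 1078 CPM per kb in fat. Of the nuclear genes Atp5b, the catalytic beta subunit of ATP synthase, was highest, at 489 CPM per kb in liver and 796 CPM per kb in fat, and Cox4i1, Cox6a1 and Atp5g3 were among the next. Tissue-restricted isoforms stood at the bottom: Cox8c and Cox7b2, both known from testis, had a median of 0 in each tissue, and Cox6a2, the heart and muscle isoform, had medians of 0.0521 CPM in liver and 0.200 CPM in fat. Ndufa4 and Ndufs8, which many tissues express strongly, were at medians of only 2.36 and 4.06 CPM in liver and 2.75 and 4.25 CPM in fat. Ndufa4 also varied widely between libraries, from 0.401 to 17.5 CPM in liver and from 0.373 to 19.7 CPM in fat.

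**Figure D1:**
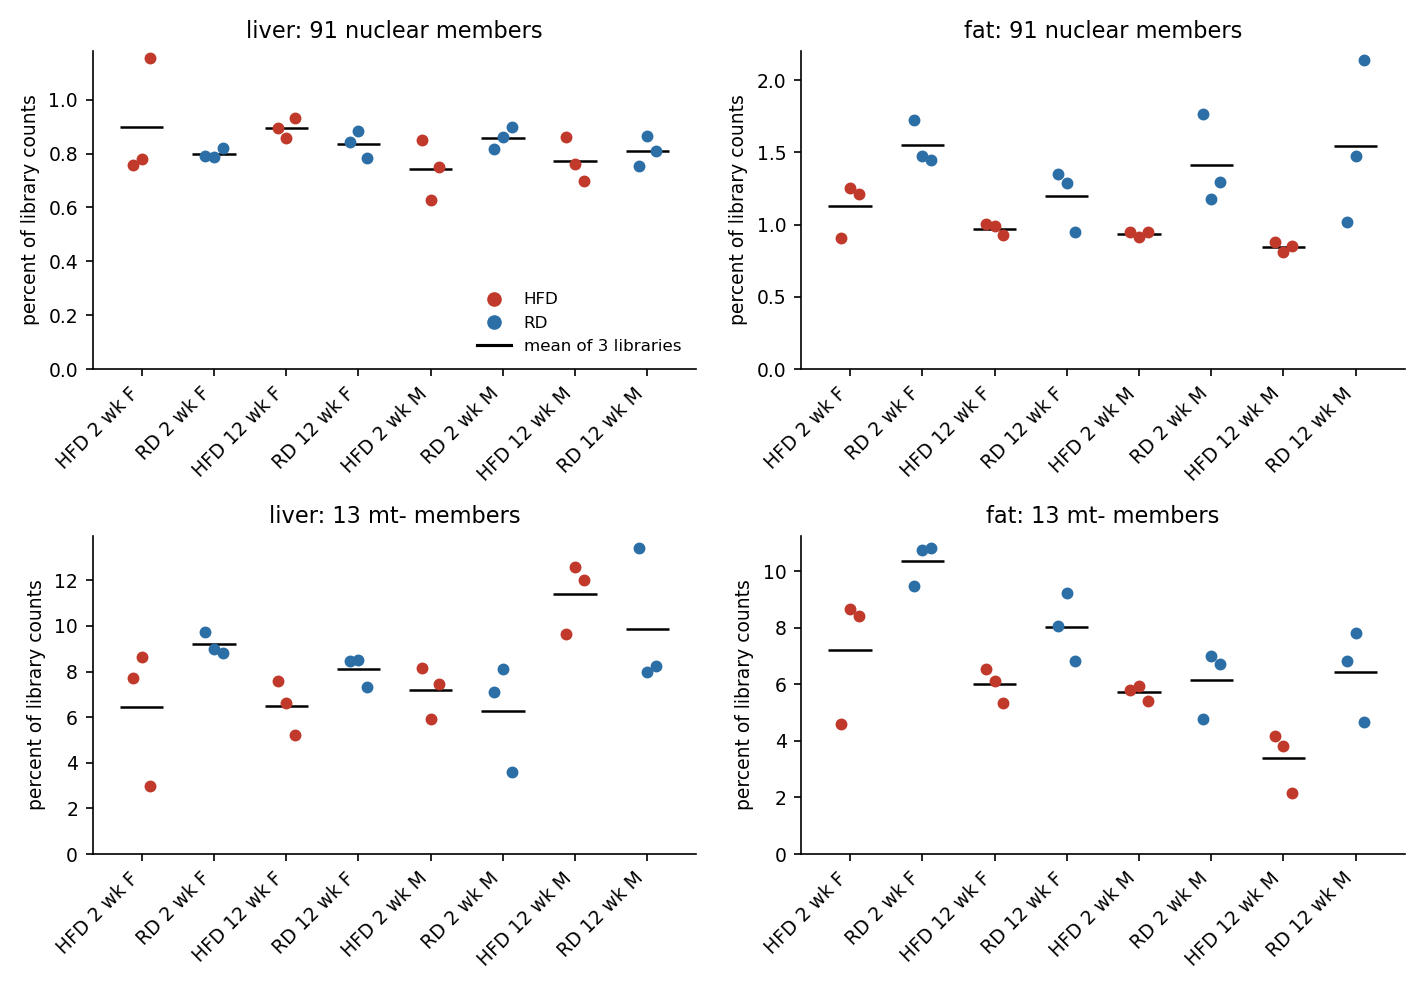
Percent of each library's estimated counts from the 91 nuclear genes (top) and the 13 mt- genes (bottom), in liver (left) and fat (right). Each point is 1 library of the group named under it, red for HFD and blue for RD, and lines mark means of 3. The RD fat library of a 12-week male at 2.14% is the highest nuclear share, and the 3 HFD fat libraries of 12-week males have the lowest mt- shares of that group pair, 2.15% to 4.16%.

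Counts of several mt- genes are uncertain. Nuclear copies in the same annotation hold 99.5% of the 31-base words of mt-Co2 (Gm28661), 99.5% of those of mt-Atp6 (Gm10925), 99.9% of those of mt-Co3 (Gm28437) and 98.1% of those of mt-Nd3 (Gm28438). The counting divided reads between such pairs. Gm28661 had a median of 375891 counts, above the 84737 counts of mt-Co2 itself. Fold changes of these 4 genes are therefore given also with the counts of gene and copies summed, an alternative added after seeing the data.

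Between the diets, members were called in visceral fat of males at 12 weeks. There 60 of the 91 nuclear genes were lower on HFD and 1 was higher, against 28.2% of all 18325 genes called in either direction, 15% as lower and 13.2% as higher. The median log2 fold change of the nuclear genes was -0.90, against -0.11 over all genes. Called as lower were 3 of 7 complex I core subunits, 23 of 31 accessory subunits, 3 of 7 assembly factors, 2 of 4 complex II subunits, 7 of 9 complex III subunits, 10 of 16 complex IV genes and 11 of 15 ATP synthase subunits, together with Atp5s. Every HFD library was below every RD library for 59 of the 91, against 23.1% of all genes and 35% of other genes with transcripts under 1000 bases.

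In complex I, Ndufa1, an X-linked accessory subunit needed for assembly, had 38.4, 30.95 and 38.2 CPM in HFD males, against 49.98, 82.4 and 147 CPM in RD males. The groups did not overlap, and its log2 fold change was -1.38 (SE 0.29, edgeR adjusted p = 0.00269). Ndufa5, an accessory subunit of the matrix arm, had 31.03, 24.8 and 27.6 CPM in HFD males and 41.3, 66.8 and 140 CPM in RD males. The 3 HFD values were close to each other and all below the RD values, and the log2 fold change was -1.57 (SE 0.33, edgeR adjusted p = 0.00285). Ndufb11, an accessory subunit of the membrane arm, fell by 1.45 (SE 0.32, edgeR adjusted p = 0.00351). Among the core subunits called were Ndufv2 and Ndufs7, with log2 fold changes of -1.06 and -0.73. Ndufs1, the largest core subunit, was not called and had 114, 107 and 115 CPM in HFD males, against 139, 143 and 88.2 CPM in RD males, so the groups overlapped. The assembly factors called were Ndufaf7, Ndufaf2 and Ndufaf3, with log2 fold changes of -0.72, -0.91 and -0.83.

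Complex II, which carries no mitochondrially encoded subunit, had 2 of its 4 genes lower, Sdhb and Sdhd. Sdhb, its iron-sulfur subunit, had 99.3, 84.3 and 98.9 CPM in HFD males, against 113, 183 and 271 CPM in RD males. The groups did not overlap, and the log2 fold change was -1.01 (SE 0.30, edgeR adjusted p = 0.0189). Sdha, the flavoprotein that binds succinate, had 391, 339 and 356 CPM in HFD males and 476, 546 and 334 CPM in RD males, and was not called, with RD library 4 below every HFD library. Sdhd, a membrane anchor, fell by 0.54 (SE 0.19, edgeR adjusted p = 0.0365). Among complex III genes, Uqcr11 had a log2 fold change of -1.26 (SE 0.37), Uqcrh of -1.13 (SE 0.30), and Uqcrq of -1.10 (SE 0.38), all small subunits, and the core protein gene Uqcrc2 of -0.69 (SE 0.21). Cyc1, the cytochrome c1 heme protein, missed the threshold at -0.70 (edgeR adjusted p = 0.0612).

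In complex IV, Cox6c, a small membrane subunit, had 118, 94.9 and 112 CPM in HFD males, against 155, 275 and 739 CPM in RD males. The RD values were spread widely but all lay above the HFD values, and the log2 fold change was -1.85 (SE 0.39, edgeR adjusted p = 0.00286). Cox4i1, the general form of subunit 4, had 300, 253 and 298 CPM in HFD males and 375, 667 and 1041 CPM in RD males. It did not overlap either and fell by 1.29 (SE 0.29, edgeR adjusted p = 0.00442). Its lung and hypoxia isoform Cox4i2 had 3.69, 3.52 and 2.31 CPM in HFD males against 3.85, 2.48 and 4.18 CPM in RD males and was not called (edgeR adjusted p = 0.814). Of the other isoform pairs, Cox6b1 missed the threshold at -0.76 (adjusted p = 0.0565) and the testis isoform Cox6b2 was lower at -1.67 (SE 0.40, adjusted p = 0.00600). Cox7b, Cox7a2 and Cox7a2l were lower at -1.14, -1.11 and -0.91, and Cox8a at -0.66.

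Cox6a2 was the 1 nuclear member higher on HFD. It had 0.430, 0.674 and 1.17 CPM in HFD males, against 0.0420, 0.147 and 0.139 CPM in RD males. The groups did not overlap, although all 6 values were low, and the log2 fold change was 2.78 (SE 0.86, edgeR adjusted p = 0.0245). The call was lost without HFD library 4 or any of the 3 RD libraries (edgeR adjusted p = 0.0527 to 0.0911). The general isoform Cox6a1 was lower, at -0.67 (SE 0.25, edgeR adjusted p = 0.0492), with 191, 160 and 199 CPM in HFD males and 187, 287 and 400 CPM in RD males, which overlapped.

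Among the ATP synthase subunits 11 of 15 were lower, rotor and stalk subunits among them. Atp5c1, the gamma subunit of the rotor, had 233, 203 and 202 CPM in HFD males, against 296, 503 and 627 CPM in RD males. The groups did not overlap and the log2 fold change was -1.16 (SE 0.26, edgeR adjusted p = 0.00419). Atp5h, a stalk subunit whose promoter is shown above, fell by 1.28 (SE 0.31, edgeR adjusted p = 0.00687). Of the 3 genes for the same c-ring protein, Atp5g1 and Atp5g2 were lower, at -1.29 (SE 0.40) and -0.91 (SE 0.25), and Atp5g3, the most abundant, missed the threshold at -0.66 (adjusted p = 0.0610). Atp5b and Atp5a1, which form the catalytic head, were at 1141, 1029 and 1156 CPM and at 350, 321 and 356 CPM in HFD males, against 1250, 1853 and 1851 CPM and 376, 444.3 and 410 CPM in RD males. Neither was called, although no HFD value reached an RD value for either gene.

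Of the 13 mt- genes, 4 were lower in the same HFD males, against the 15% of all genes given above, and their median log2 fold change was -0.95. mt-Co2, a catalytic subunit of complex IV, had 407, 367 and 258 CPM in HFD males and 1112, 1181 and 1293 CPM in RD males. The groups lay far apart and the log2 fold change was -1.80 (SE 0.40, edgeR adjusted p = 0.00395), or -1.14 with its nuclear copies summed (adjusted p = 0.00654). mt-Co3, a further core subunit of complex IV, had 2102, 1524 and 571 CPM in HFD males and 4352, 5814 and 4286 CPM in RD males, and fell by 1.78 (SE 0.45, adjusted p = 0.00887), or by 1.54 with its copies summed. mt-Cytb, the cytochrome b of complex III, had 4765, 4244 and 3296 CPM in HFD males and 8701, 10440 and 7456 CPM in RD males, and its log2 fold change was -1.11 (SE 0.28, adjusted p = 0.00802). mt-Co1 was at -0.84 (SE 0.25, adjusted p = 0.0194). The share of library counts from all 13 was 4.16%, 3.82% and 2.15% in HFD males and 6.83%, 7.81% and 4.66% in RD males, so here the groups did not overlap.

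**Figure D2:**
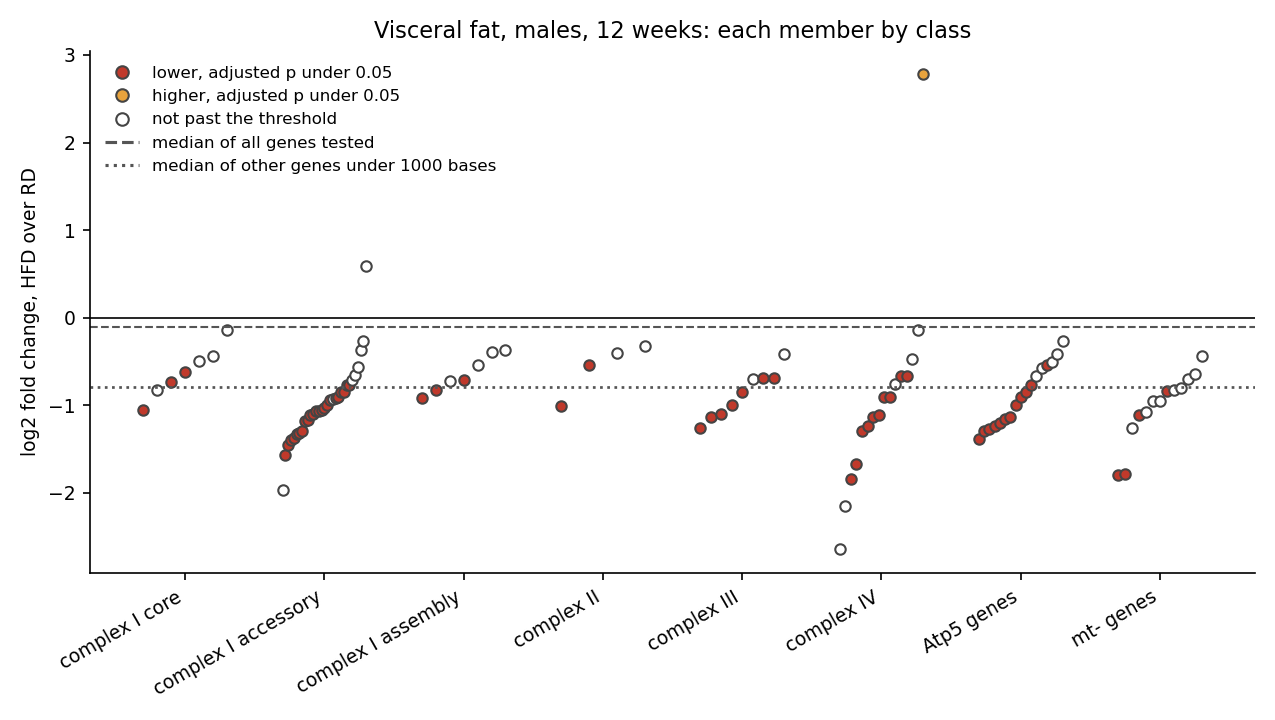
Log2 fold change of HFD over RD for each of the 104 genes in fat of 12-week males, by class on the x axis. Filled points passed the threshold (red lower, orange higher) and open points did not. Dashed and dotted lines mark the medians of all genes (-0.11) and of other genes with transcripts under 1000 bases (-0.80), and the orange point is Cox6a2 at 2.78.

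The male 12-week result depended on 1 RD library, on transcript length and on the libraries that gave the spread. RD library 4 was the highest of the 6 libraries for 82 of the 91 nuclear genes. Without it 8 nuclear genes were called, all lower, at a median of -0.50. These were Ndufa1, Ndufa5, Ndufa6, Ndufb11, Cox4i1, Cox6c, Cox6b2 and Atp5c1, which were called in each of the 6 fits that left out 1 library, and the same held for mt-Co2 and mt-Co3 of the mt- genes. Without HFD library 2, 3 or 4 there were 36, 26 and 25 nuclear calls, and without HFD library 4 there were 2 mt- calls. With only the 6 libraries compared in the fit, Cox6a2 was called as higher and 8 nuclear genes as lower (Ndufa1, Ndufa4, Ndufa5, Ndufb8, Ndufaf7, Uqcrc2, Cox6b2 and Atp5c1, edgeR adjusted p = 0.0402 to 0.0493), so most calls, those of Cox6c, Cox4i1, Ndufb11, Sdhb and Atp5h among them, were lost, while the nuclear median was -0.89. In that fit mt-Co2, mt-Co3 and mt-Cytb were called. With the replicate number as a block, Cox6a2 was the 1 nuclear gene called, as higher, so no nuclear gene kept its call as lower. With this block mt-Co2 and mt-Co3 were called as lower. Most members have short transcripts, with a median of 892 bases for the 90 nuclear genes with a length, and of the other 1132 genes under 1000 bases 29.9% were lower in this comparison, at a median of -0.80. Among the nuclear members 38 of 50 under 1000 bases were lower, at a median of -1.05, and 22 of 40 longer ones, at a median of -0.70. With per-library offsets that removed the trend over length in genes outside the pathway, an alternative added after seeing the data, 33 nuclear genes were lower and 1 higher, at a median of -0.35 against -0.14 for all genes. Cox6a1 and Cox8a then had values of 0.04 and 0.03 (adjusted p = 0.883 and 0.934), so their direction turned. Of the 8 genes named above, Cox6b2 was then not called (adjusted p = 0.0668), and the other seven, Sdhb and Atp5h were called as lower with smaller changes, such as -0.46 for Ndufa1, -0.95 for Ndufa5, -1.06 for Cox6c, -0.65 for Cox4i1 and -0.58 for Sdhb. Of the other genes named as lower, Sdhd, Ndufs7, Ndufaf2, Ndufaf3, Uqcr11, Cox7a2, Cox7a2l, Atp5g2 and mt-Co1 were not called with these offsets.

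An index of short against long genes separated libraries across the series. It was taken as the median deviation of genes under 1000 bases minus that of genes over 4000 bases, both outside the pathway, where a deviation is the log2 level in a library minus the gene's median over the 24 libraries of the tissue. In fat it was 1.66 in RD library 4 of the 12-week males, where the median deviation of the nuclear members was 1.09, and 0.90, 0.88 and 0.54 in RD library 6 of the 2-week males, RD library 1 of the 2-week females and RD library 3 of the 12-week males. The fat median was -0.06. In liver it was highest, at 0.77, in HFD library 5 of the 2-week females, whose mt- share of 2.98% was the lowest in liver and which had the highest value of its 6 libraries for 74 of the 87 nuclear genes tested.

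**Figure D3:**
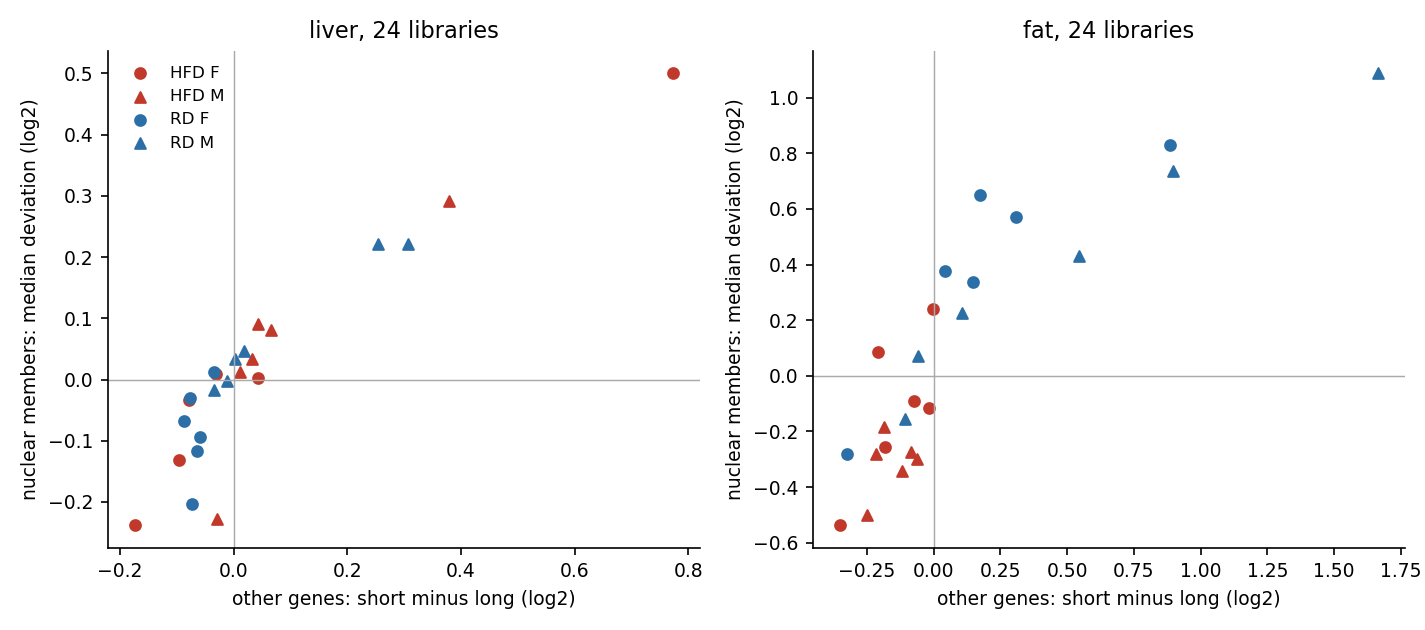
Each of the 24 liver (left) and 24 fat (right) libraries by the index of short against long genes outside the pathway (x axis, log2) and the median deviation of the nuclear members (y axis, log2). Circles are females and triangles males, red HFD and blue RD. The libraries at the far right are HFD female library 5 in liver (0.77) and RD male library 4 in fat (1.66), and the members' deviation is highest in them.

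Markers of other cells also moved between the fat of HFD and RD males at 12 weeks. Epididymis markers summed to 2.01 to 8.16 CPM in HFD males, with 1 of 8 markers at 1 CPM or more, and to 3676 to 7542 CPM in RD males, with 4 to 6 of 8. Gpx5, Lcn8 and Lcn9 were at or near 0 in both groups, while Crisp1 had most of the counts. Epithelium markers summed to 3.73 to 25.1 CPM in HFD males and 174 to 340 CPM in RD males, with 2 of 5 and 4 to 5 of 5 detected. Macrophage markers, 6 of 6 detected, summed to 2589 to 3457 CPM in HFD males and 859 to 1049 CPM in RD males, T cell markers, 3 or 4 of 4 detected, to 66.4 to 95.9 CPM in HFD males and 6.90 to 10.8 CPM in RD males, and endothelial markers, 4 of 4, to 747 to 857 CPM in HFD males and 141 to 685 CPM in RD males. Erythroid markers summed to 907 to 1668 CPM in HFD males and 2642 to 4046 CPM in RD males. Adipocyte markers overlapped, at 17070 to 21230 CPM in HFD males and 13890 to 21690 CPM in RD males, and so did skeletal muscle markers, at 20.1 to 34.9 CPM in HFD males and 28.8 to 166 CPM in RD males, and the 4 brown fat markers, 3 of 4 detected with Ucp1 near 0, at 7.57 to 13.02 CPM in HFD males and 8.56 to 30.02 CPM in RD males. The part of these cells in the result was not tested.

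Genes around the pathway were taken from lists chosen with earlier results known, and their counts stand against the 15% of all genes called as lower in this comparison. In HFD against RD males at 12 weeks, 29 of 77 mitochondrial ribosome genes (37.7%) were lower and none higher, at a median of -0.62, against 29.9% of other genes under 1000 bases. In the TCA cycle, which feeds the chain, 2 of 13 (15.4%) were lower, Idh3b at -0.59 and Suclg2 at -0.85. In coenzyme Q synthesis 2 of 12 (16.7%) were lower, Coq4 and Coq9 at -0.61 and -0.52, and none of the 4 electron carrier genes, cytochrome c (Cycs) among them, passed. Of 8 genes that express the mitochondrial genome, Slirp, Polg2, Mterf3 and Mterf4 were lower and Polg, its DNA polymerase, was higher at 0.57. Of 12 regulators, Tfam, which packages and transcribes mitochondrial DNA, was lower at -0.64 and the coactivator Pprc1 higher at 1.25. Of 28 other assembly factors 7 (25%) were lower, among them Surf1 at -0.67 and Cox17, the copper chaperone of complex IV, at -1.01, and 1 was higher, Sco2. Of 6 carriers the ATP and ADP exchanger Slc25a4 was lower at -0.58, and no thermogenic gene of 4 passed.

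The other diet comparisons in fat gave no called member, yet their libraries separated in part. In 2-week females 0 of 91 nuclear genes were called, against 0.235% of all genes, while 72 had an unadjusted p under 0.05 and DESeq2 called 18, all lower. The median log2 fold change was -0.74, and for 76 of the 91 every HFD library was below every RD library, against 12.5% of all genes and 25.3% of other genes under 1000 bases. Atp5g3, a c-ring gene, had the smallest p of these (log2 fold change -0.93, SE 0.26, edgeR adjusted p = 0.0877). Cox5a, a nuclear subunit of complex IV, had 84.3, 110 and 114 CPM in HFD females and 160, 154 and 174 CPM in RD females, with no overlap. Without HFD library 2, 7 nuclear genes were called as lower. HFD library 1 of this group had adipocyte markers of only 5500 CPM, the lowest in fat. Its epithelium markers of 855 CPM were the highest in fat, against 16.2 and 16.3 CPM in HFD libraries 2 and 5. Atp5g3 had 143 CPM in library 1 and 315 and 242 CPM in libraries 2 and 5.

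In 2-week males no gene of the 18325 was called (0%), and 62 of the 91 nuclear members had an unadjusted p under 0.05. The median was -0.63, and 74 of the 91 had every HFD library below every RD library, against 10% of all genes and 18.7% of other short genes. Cox5a again did not overlap, with 75.9, 65.8 and 68.8 CPM in HFD males and 144, 103 and 110 CPM in RD males (log2 fold change -0.76, SE 0.22, edgeR adjusted p = 0.356). DESeq2 called none of them. Brown fat markers, 3 of 4 detected, summed to 4.88 to 9.72 CPM in HFD males and 18.4 to 29.2 CPM in RD males, macrophage markers to 1183 to 1361 CPM in HFD males and 934 to 1086 CPM in RD males, and erythroid markers to 3564 to 4570 CPM in HFD males and 2288 to 3468 CPM in RD males, and their part was not tested. Epididymis markers overlapped, at 6.12, 8208 and 13.1 CPM in HFD males and 10070, 4.07 and 3258 CPM in RD males. Their part was not tested either. In 12-week females no member passed, against 2.08% of all genes, and 14 nuclear genes had an unadjusted p under 0.05, at a median of -0.33. Only 9 of 91 were lower in every HFD library, against 13.9% of all genes, and for Cox5a, with 81.8, 92.9 and 70.7 CPM in HFD females and 132, 121 and 70.7 CPM in RD females, RD library 8 stood level with the lowest HFD library. In these females brown fat markers, with 2 to 4 of 4 detected, summed to 10.9 to 49.1 CPM on HFD and, with 4 of 4, to 70.1 to 111 CPM on RD, endothelial markers to 977 to 1032 CPM on HFD and 511 to 725 CPM on RD, and adipocyte markers to 19040 to 22000 CPM on HFD and 16620 to 18440 CPM on RD, and their part was not tested. With the length-corrected offsets the nuclear medians were -0.32, -0.35 and -0.30 in 2-week females, 2-week males and 12-week females, and 3 nuclear genes passed in the 12-week females.

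The mt- genes gave 0 calls in these comparisons. Their medians were -0.67 in 2-week females, -0.06 in 2-week males and -0.50 in 12-week females. In the same order, every HFD library was lower for 7, 2 and 4 of the 13 (53.8%, 15.4% and 30.8%). Over all genes the shares were 12.5%, 10% and 13.9%, so the count in 2-week males was near that of all genes. The numbers with an unadjusted p under 0.05 were 4, 0 and 1, and DESeq2 called 3, 0 and 0. The mt- share averaged 7.23% ± 2.27 in HFD and 10.3% ± 0.754 in RD females at 2 weeks (SD, n = 3 each), and 5.72% ± 0.269 in HFD and 6.16% ± 1.22 in RD males. At 12 weeks the females had 6.00% ± 0.599 on HFD and 8.04% ± 1.19 on RD.

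Whether the diet change differed between the sexes was tested as an interaction, females minus males. In fat at 12 weeks no member passed, against 1.25% of all genes, with 6 nuclear and 0 mt- genes at an unadjusted p under 0.05 and none by DESeq2. The median of the nuclear genes was 0.59, and 87 of 91 were above 0. Without RD library 2 of the males 5 were called. With the length-corrected offsets the median was 0.07. In fat at 2 weeks, and in liver at either time, no gene of all tested passed (0%). No member had an unadjusted p under 0.05 in fat at 2 weeks, while 4 nuclear and 2 mt- genes did in liver at 2 weeks and 2 nuclear and 1 mt- gene did at 12 weeks, and DESeq2 called none of them. The call in male fat at 12 weeks is therefore not shown to be specific to males.

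In liver no member was called between the diets. Of 87 nuclear and 13 mt- genes none passed in 2-week females (0.252% of all genes called), 2-week males (0.340%), 12-week females (0.00629%) or 12-week males (1.12%). The numbers of nuclear genes with an unadjusted p under 0.05 were 11, 3, 2 and 2, and those of mt- genes 2, 0, 2 and 0. DESeq2 called 1 nuclear gene in females and 1 in males at 2 weeks, both higher, and 1 mt- gene in 12-week females, lower. Median log2 fold changes of the nuclear genes were 0.16, -0.09, 0.07 and 0.02, and those of the mt- genes -0.61, 0.32, -0.42 and 0.38, in the same order of groups. Single libraries moved the mt- medians: without HFD library 5 of the 2-week females the median was -0.195, without RD library 8 of the 2-week males 0.01, and without RD library 2 of the 12-week males 0.67. Every HFD library was below every RD library for 9 of 13 mt- genes in 2-week females, against 5.32% of other genes under 1000 bases. The same held for 6 of 13 in 12-week females, against 7.29%, and for 0 and 1 in 2-week and 12-week males. For 18 of 87 nuclear genes every HFD library was above every RD library in 12-week females, against 8.53% of other genes under 1000 bases. No share over all genes stands beside these counts in liver, so they describe the libraries and do not set the members apart from other genes. No member passed the threshold of the interaction.

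One RD male liver at 12 weeks stood with the HFD males in its mt- share and some members, but with the RD males in cell markers. The HFD males had 9.63%, 12.6% and 12.0% of their counts from mt- genes, and RD library 2 had 13.4%, while the other RD males had 7.97% and 8.23%. For Ndufa10, an accessory subunit of complex I, the HFD males had 153, 160 and 161 CPM, RD library 2 had 170 CPM, and the other RD males had 117 and 124 CPM. For Cyc1 the HFD males had 79.5, 64.9 and 61.2 CPM, RD library 2 had 59.5 CPM, and the other RD males had 101 and 110 CPM. Macrophage markers summed to 73.3 to 113 CPM in HFD males, to 213 CPM in RD library 2 and to 185 and 218 CPM in the other RD males, and endothelial markers to 47.6 to 79.6 CPM in HFD males, 132 CPM in RD library 2 and 104 and 108 CPM in the other RD males. Without this library 1 mt- gene was called as higher on HFD in males and 1 in the interaction.

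Between the sexes, mt- genes were called in HFD livers at 12 weeks. There 7 of 13 were lower in females than in males and none higher, against 17.3% of all 15897 genes called and 7.4% called as lower. Each of the 13 was lower in every female than in every male library, against 16.5% of all genes, and the median log2 fold change was -1.36. mt-Nd3 had 179, 119 and 124 CPM in HFD females and 536, 681 and 603 CPM in HFD males. The sexes were far apart, and the log2 fold change was -2.11 (SE 0.41, edgeR adjusted p = 0.00138), or -1.01 with its nuclear copies summed (adjusted p = 0.0501). mt-Nd6, the only subunit on the light strand, had no copy with 25% or more of its words. Its level was 1234, 1012 and 811 CPM in HFD females and 2229, 3767 and 3908 CPM in HFD males. It did not overlap either, at -1.70 (SE 0.35, edgeR adjusted p = 0.00209). mt-Co2 had 882, 707 and 609 CPM in HFD females and 2934, 4417 and 5854 CPM in HFD males, and its log2 fold change was -2.59 (SE 0.56, adjusted p = 0.00381), or -0.97 with copies summed (adjusted p = 0.0107). mt-Atp6, the proton channel of ATP synthase, was at -1.91 (SE 0.52), or -1.19 with copies summed (adjusted p = 0.0458), and the complex I subunits mt-Nd2, mt-Nd5 and mt-Nd4 at -1.52, -1.27 and -1.26. mt-Co1 had the smallest change, -0.62 (adjusted p = 0.138).

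Few nuclear genes were called in the same comparison. In HFD livers at 12 weeks 2 of 87 nuclear genes were called, Ndufa10 at -0.52 (SE 0.17, edgeR adjusted p = 0.0393) and Ndufaf4 at -0.52 (SE 0.16, adjusted p = 0.0313), at a nuclear median of -0.07. The mt- share was 6.47% ± 1.18 in HFD females and 11.4% ± 1.57 in HFD males (SD, n = 3 each). mt-Co2, mt-Nd3 and mt-Nd6 were called in each of the 6 fits that left out 1 library. The mt- count was 3 without HFD female library 6 or 7 or HFD male library 4, 4 without HFD male library 3, and reached 10 in another of these fits, and the nuclear count was 0 or 1. With the length-corrected offsets 4 mt- and 6 nuclear genes were called, among them 4 of the 7 and both of these nuclear genes. Macrophage markers summed to 322 to 356 CPM in HFD females and 73.3 to 113 CPM in HFD males, and endothelial markers to 126 to 162 CPM in HFD females and 47.6 to 79.6 CPM in HFD males. B cell markers summed to 21.3 to 38.7 CPM in HFD females and 8.46 to 10.9 CPM in HFD males, erythroid markers to 160 to 327 CPM in HFD females and 355 to 391 CPM in HFD males, and epithelium markers to 217 to 274 CPM in HFD females and 289 to 831 CPM in HFD males. Hepatocyte markers overlapped, and the part of these cells was not tested. Around the pathway, Cycs was lower in females at -1.26 (adjusted p = 0.000234), Slc25a4 was higher at 0.94, and 4 of 77 mitochondrial ribosome genes were lower.

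On RD the mt- genes were not called between the sexes. At 12 weeks all 13 had values below 0, at a median of -0.53, with 2 at an unadjusted p under 0.05 and 1 by DESeq2. The mt- share there was 13.4% in RD male library 2, and 7.97% and 8.23% in RD male libraries 3 and 4. RD female library 8, at 7.33%, was below all of these, while RD female libraries 5 and 7 lay above RD male libraries 3 and 4. The sexes thus overlapped in this share. For 5 of the 13 mt- genes every female library was below every male library, against 21.6% of other genes under 1000 bases. At 2 weeks 12 of 13 were above 0, at a median of 0.46, with 1 at an unadjusted p under 0.05 and none by DESeq2. On HFD at 2 weeks 9 of 13 were below 0, at a median of -0.46, and none had an unadjusted p under 0.05 or was called by DESeq2. At 2 weeks the mt- share was 8.81% to 9.75% in RD females and 7.09%, 8.12% and 3.60% in RD males, the last in library 8.

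Of the sex comparisons, RD livers at 2 weeks had the highest number of nuclear calls, with 8 of 87 lower in females and none higher, against 9.81% of all genes called and 4.45% called as lower. Ndufa1 had 28.0, 29.4 and 27.4 CPM in RD females and 38.8, 46.1 and 48.6 CPM in RD males. The sexes did not overlap, and the log2 fold change was -0.65 (SE 0.15, edgeR adjusted p = 0.00789). Ndufaf4, an assembly factor of complex I, had 14.3, 19.4 and 17.7 CPM in RD females and 29.4, 28.9 and 23.2 CPM in RD males, with no overlap and a log2 fold change of -0.66 (SE 0.16, edgeR adjusted p = 0.0120). Cyc1 had 64.6, 73.4 and 74.2 CPM in RD females and 103, 120 and 111 CPM in RD males, at -0.65 (SE 0.18, edgeR adjusted p = 0.0254). The others were Uqcr10 of complex III at -0.59, the complex IV genes Cox7c, Cox7a2 and Cox8a at -0.50, -0.65 and -0.31, and the core subunit Ndufs8 at -0.82. For 45 of the 87 every female library was below every male library, against 18.2% of all genes and 30.7% of other genes under 1000 bases. Ndufa1 was called in all 6 fits without 1 library, and 2 genes were called without any of the 3 RD females or without RD male library 7 or 8. DESeq2 called 14. With the length-corrected offsets 6 were called, 5 of them among these 8, and with only the groups compared 31, these 8 among them. Hepatocyte markers summed to 106400 to 125400 CPM in RD females and 83770 to 103500 CPM in RD males, erythroid markers to 197 to 239 CPM in RD females and 657 to 994 CPM in RD males, B cell markers to 38.7 to 69.7 CPM in RD females and 6.21 to 13.05 CPM in RD males, and macrophage markers to 329 to 365 CPM in RD females and 249 to 288 CPM in RD males, and their part was not tested. From the list of regulators, Ppargc1a and Esrrg were higher in the same females, at 1.72 and 2.31, while the 8 called members were lower. A link between them was not tested. Of 77 mitochondrial ribosome genes 11 were lower.

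Ndufaf4 was below the male level in each of the other liver comparisons too. It was called in RD livers at 12 weeks, as the 1 nuclear gene of 87 against 8.81% of all genes called and 3.18% called as lower, with 17.9, 15.97 and 17.2 CPM in RD females and 23.6, 24.3 and 27.8 CPM in RD males (log2 fold change -0.57, SE 0.16, edgeR adjusted p = 0.0301), a call lost without any 1 of the 6 libraries. In HFD livers at 12 weeks it had 18.3, 21.6 and 17.1 CPM in females and 21.97, 29.8 and 29.8 CPM in males, which did not overlap, and this call was lost without HFD female library 3 or 7 or HFD male library 3 or 4. At 2 weeks on HFD the values were 19.4, 15.9 and 20.9 CPM in females and 28.5, 20.3 and 26.7 CPM in males, which overlapped, and it was not called. In that comparison 2 of 87 genes were lower, against 12.4% of all genes called and 6.06% called as lower. Cox7c, a small complex IV subunit, had 70.3, 73.0 and 75.1 CPM in HFD females and 137, 76.6 and 115 CPM in HFD males. The sexes did not overlap, and its log2 fold change was -0.59 (SE 0.15, edgeR adjusted p = 0.0137). Ndufa4, low in liver, was at -2.19 (SE 0.69, edgeR adjusted p = 0.0426). It had 2.34, 1.66 and 1.67 CPM in HFD females and 4.90, 3.53 and 17.5 CPM in HFD males, the last in library 14. Without HFD female library 5, which stood apart, 9 were called as lower, without HFD male library 13 there were 8, without HFD male library 14 none, and without HFD female library 1 or HFD male library 12 there was 1. With only the groups compared none was called, and with the length-corrected offsets 3 were, 1 of them among these 2. Hepatocyte markers summed to 111100 to 130500 CPM in HFD females and 60350 to 78210 CPM in HFD males, and B cell markers to 32.5 to 49.4 CPM in HFD females and 5.78 to 7.61 CPM in HFD males, and their part was not tested.

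**Figure D4:**
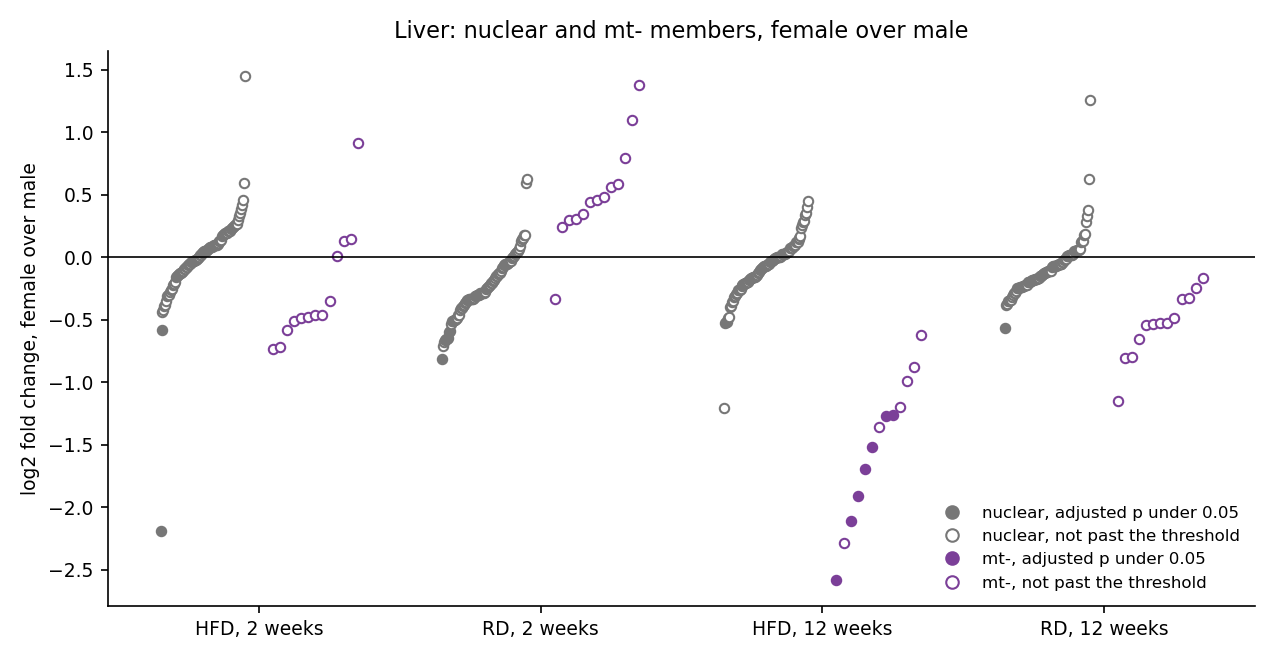
Log2 fold change of females over males in liver for each nuclear gene (grey, 87) and mt- gene (purple, 13), by diet and weeks on the x axis, in rising order within each set. Filled points passed the threshold. The 13 mt- genes on HFD at 12 weeks lie between -2.59 and -0.62, and 7 of them are filled.

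In fat no member passed between the sexes. The calls over all genes were 3.8% on HFD and 4.28% on RD at 2 weeks, and 2.85% on HFD and 10.6% on RD at 12 weeks. Nuclear genes with an unadjusted p under 0.05 numbered 9, 7, 0 and 19 in the same order, and mt- genes 1, 10, 8 and 0. DESeq2 called 0, 1, 0 and 5 nuclear and 0, 7, 4 and 0 mt- genes. In HFD fat at 12 weeks 35 of 91 nuclear and 12 of 13 mt- genes were higher in every female than in every male library, against 15.1% of all genes, and their medians were 0.21 and 0.85. In RD fat at 2 weeks the same held for 19 and 10, against 12.8%, at medians of 0.31 and 0.87. In the HFD fat at 12 weeks macrophage markers summed to 1495 to 1816 CPM in females and 2589 to 3457 CPM in males. T cell markers summed to 9.65 to 14.3 CPM in females and 66.4 to 95.9 CPM in males. In the RD fat at 2 weeks brown fat markers summed to 37.7 to 293 CPM in females and 18.4 to 29.2 CPM in males. Epididymis markers there summed to 1.09 to 2.54 CPM in females and to 10070, 4.07 and 3258 CPM in males. Epithelium markers there summed to 13.5 to 24.1 CPM in females and 50.1 to 252 CPM in males. Erythroid markers summed to 624 to 1009 CPM in females and 2288 to 3468 CPM in males. In RD fat at 12 weeks the nuclear median was -0.40 and the mt- median 0.33, and without RD male library 2, 31 nuclear genes were called as lower in females. With the length-corrected offsets that nuclear median was 0.10, on the other side of 0, and 3 nuclear genes were called as higher in females. In RD fat at 12 weeks epididymis markers summed to 0.875 to 1.08 CPM in females and 3676 to 7542 CPM in males. Brown fat markers summed to 70.1 to 111 CPM in females and 8.56 to 30.02 CPM in males. Erythroid markers summed to 694 to 1566 CPM in females and 2642 to 4046 CPM in males. Adipocyte markers overlapped between the sexes in each of these comparisons. The part of these cells was not tested.

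Between 12 and 2 weeks, members were called in HFD males, and these comparisons share libraries with those above. In liver 6 of 87 nuclear genes were higher and 2 lower at 12 weeks. Of all genes 17.1% were called, 7.71% as higher and 9.4% as lower, so the nuclear genes were called less often than other genes. Higher were Ndufs1 at 0.38 (SE 0.11, edgeR adjusted p = 0.0162), Uqcrc2 at 0.47, Sdha at 0.43, Ndufa10 at 0.54, Uqcrb at 0.49 and Atp5sl at 0.48, and lower were Cyc1 at -0.59 and Ndufa4 at -2.06. Ndufa4 was low, with 2.04, 1.70 and 2.47 CPM at 12 weeks and 4.90, 3.53 and 17.5 CPM at 2 weeks, the last in library 14. Ndufs1 had 129, 139 and 129 CPM at 12 weeks and 103, 87.4 and 114 CPM at 2 weeks, with no overlap. Leaving out any 1 of the 6 libraries left 0 to 4 nuclear calls, only the groups compared left 0, and no filter on low counts left 4. With the length-corrected offsets 14 were called, 7 of them among these 8. Hepatocyte markers summed to 94580 to 103800 CPM at 12 weeks and 60350 to 78210 CPM at 2 weeks, macrophage markers to 73.3 to 113 CPM at 12 weeks and 240 to 367 CPM at 2 weeks, endothelial markers to 47.6 to 79.6 CPM at 12 weeks and 144 to 164 CPM at 2 weeks, and erythroid markers to 355 to 391 CPM at 12 weeks and 821 to 1117 CPM at 2 weeks, and their part was not tested. mt-Co2 was higher at 1.68 (SE 0.54, adjusted p = 0.0390), or at 0.62 with copies summed (adjusted p = 0.0886), and was not called without any 1 of HFD male libraries 3 and 4 at 12 weeks or 12, 13 and 14 at 2 weeks.

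In fat of HFD males Cox6a2 was the 1 nuclear gene of 91 called, higher at 12 weeks at 2.92 (SE 0.87, edgeR adjusted p = 0.0353). Of all genes 12.1% were called, 5.94% as higher and 6.12% as lower, so the nuclear genes were called less often than other genes. Cox6a2 had 0.430, 0.674 and 1.17 CPM at 12 weeks and 0.0447, 0.0875 and 0.164 CPM at 2 weeks, and did not overlap. It was not called without HFD library 3 or 4 at 12 weeks or without 12, 13 or 14 at 2 weeks. mt-Co2 and mt-Co3 were lower at -1.88 (SE 0.40) and -1.39 (SE 0.45), or at -0.67 and -0.74 with copies summed (adjusted p = 0.114 and 0.0869). mt-Co2 was called in every fit without 1 library, and mt-Co3 was lost in 5 of them. Macrophage markers summed to 2589 to 3457 CPM at 12 weeks and 1183 to 1361 CPM at 2 weeks, T cell markers to 66.4 to 95.9 CPM at 12 weeks and 7.26 to 8.89 CPM at 2 weeks, B cell markers to 194 to 399 CPM at 12 weeks and 16.97 to 62.3 CPM at 2 weeks, and erythroid markers to 907 to 1668 CPM at 12 weeks and 3564 to 4570 CPM at 2 weeks, and their part was not tested. The other comparisons of time gave no called member. In liver the share of all genes called was 0.0189% in HFD females, 0% in RD females and 0.233% in RD males, and in fat it was 1.51% in HFD females and 0% in RD females and RD males. Nuclear genes with an unadjusted p under 0.05 numbered 9, 0 and 1 in liver and 5, 26 and 0 in fat in that order, and mt- genes 2, 0 and 2 in liver and none in fat. DESeq2 called 1 mt- gene in livers of HFD females and 1 nuclear gene in fat of each of HFD and RD females.

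Liver and fat were set against each other in 1 fit of all 48 libraries, in which 18800 genes were tested. For each sex, diet and time the liver and fat libraries carry the same numbers. The labels do not say whether they came from the same animals. The fit took them as independent, so its p-values leave out any such pairing. On HFD 79 of 91 nuclear genes were higher in liver and 4 lower, against 75.9% of all genes called, 35.2% as higher and 40.7% as lower, at a median log2 fold change of 0.87 against -0.14 for all genes. On RD 35 were higher and 16 lower, against 74.7%, 33.4% as higher and 41.4% as lower, at a median of 0.05 against -0.19. All 13 mt- genes were higher in liver on each diet, at medians of 1.55 on HFD and 1.14 on RD. Complex II was higher in liver throughout, with 4 of 4 genes on each diet, while complex IV had 10 higher and 3 lower on HFD and 2 higher and 4 lower on RD. The difference between the 2 diets in these counts was not tested.

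Some isoforms differed between the tissues. Levels in this comparison were scaled jointly over the 48 libraries and are not on the scale used above, which was set within each tissue. On the joint scale Cox4i2 ranged from 0 to 0.196 CPM in liver on HFD, against 0.887 to 3.23 CPM in fat, and had a log2 fold change of -4.85 (SE 0.37, edgeR adjusted p = 2.71e-14). The general Cox4i1 was higher in liver on HFD at 0.53 and lower on RD at -0.28 (edgeR adjusted p = 0.0470). The call on RD was lost in most fits without 1 library, RD fat library 4 of the 12-week males among them (-0.18, adjusted p = 0.172). Cox6b2 was lower in liver at -2.98 on HFD and -3.85 on RD, and Ndufa4l2, a hypoxia-induced relative of Ndufa4, at -2.41 and -1.92. For Cox4i2, Cox6b2 and Ndufa4l2 the 12 liver libraries of a diet lay below all 12 fat libraries. This was not particular to isoforms. Sdhc, Sdhd and Ndufaf6 lay apart on both diets too, higher in liver, while Cox4i1, Cox6a1 and Cox8a overlapped on both. The share of all genes that lay apart in this way is not given. Cox6a2 was lower in liver on HFD at -1.26 (adjusted p = 0.0130) and not called on RD. Of the c-ring genes, Atp5g1 was higher in liver at 2.61 (SE 0.16) on HFD and 1.85 (SE 0.16) on RD, with medians on the joint scale of 162 CPM in liver and 26.01 CPM in fat on HFD. Atp5g3 was higher at 1.14 and 0.42, and Atp5g2 at 0.50 on HFD (0.22, adjusted p = 0.0599, with the length-corrected offsets) but not called on RD. Also higher in liver on both diets were Ndufaf6, an assembly factor of complex I, at 2.24 and 1.497, Sdhd at 1.37 and 0.96, Ndufaf4 at 1.36 and 0.94, and Atp5sl at 1.90 and 1.58. Of the mt- genes without a near-complete nuclear copy, mt-Nd2 was at 1.79 and 1.67 and mt-Co1 at 1.45 and 1.00. Cox8a was lower in liver on RD at -0.67, and not called on HFD. The near-silent Cox8c and Cox7b2 gave no usable estimate.

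**Figure D5:**
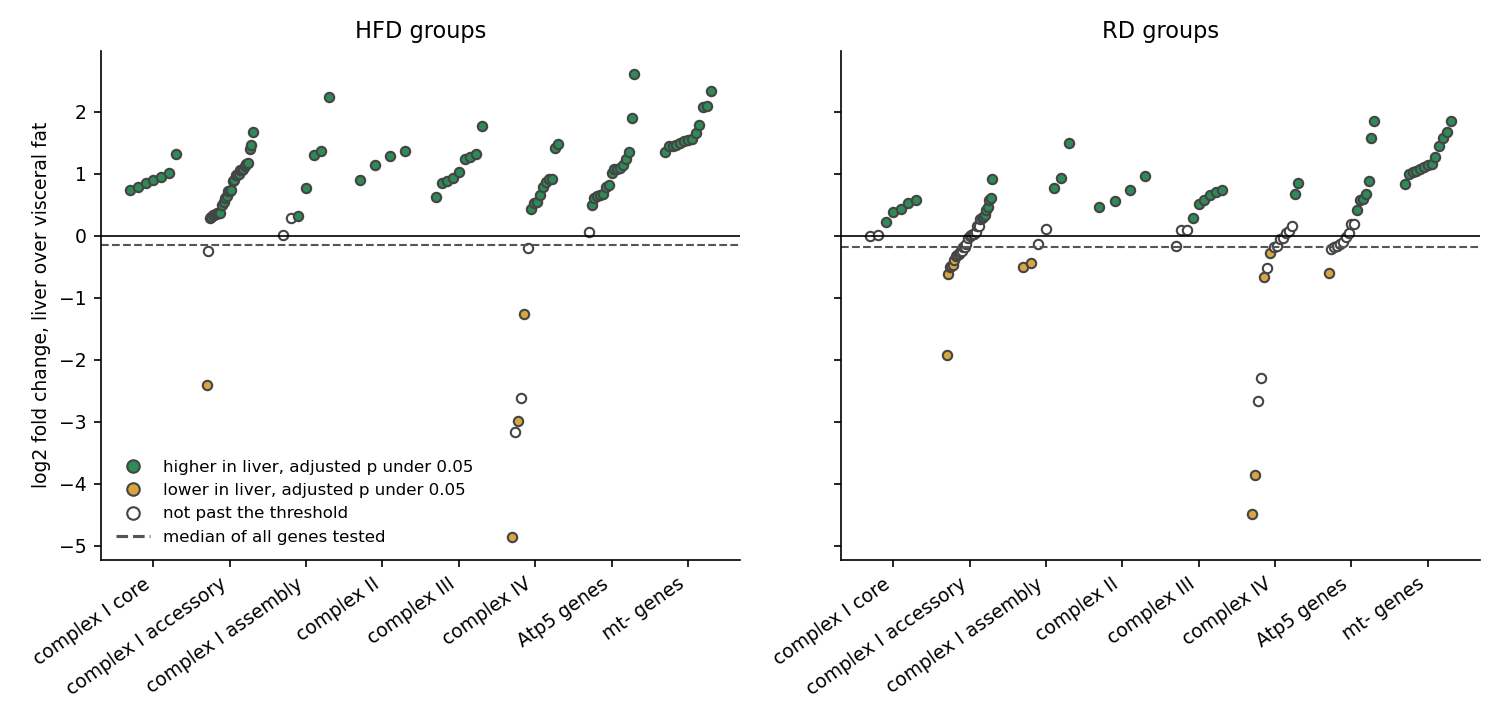
Log2 fold change of liver over fat for each gene by class, on HFD (left) and RD (right). Filled points passed the threshold, green higher and orange lower in liver, and the dashed lines mark the medians of all genes (-0.14 and -0.19). Nuclear genes lie mostly above 0 on HFD and on both sides of it on RD, and Cox4i2 is the lowest called point in both panels.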

How the data were processed

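Polyadenylated RNA of 48 liver and fat libraries was sequenced from a stranded kit with 200 ng of RNA, per the labels' protocols. The authors deposited 1 table of estimated counts per gene, not normalized. Reads were counted with kallisto on GRCm38, per the submitters' processing notes, which also list DESeq2 and edgeR. Reads shared by similar transcripts are divided by such counting, so near-identical copies are uncertain. Estimated counts were rounded to whole numbers. Each tissue was fitted alone over its 24 libraries and 8 groups, and both together for liver over fat, with edgeR 4.0.16 (filterByExpr, TMM, quasi-likelihood, robust) in R 4.3.3, and p-values were adjusted by the Benjamini-Hochberg method at 0.05 over all genes tested. Groups came from the labels. All columns were used. The fits were tested on simulated counts for HFD over RD in 12-week males of each tissue and for liver over fat on HFD.

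The members, lists and tests were chosen with earlier results of these data known. Named by rule were up to 6 called members per direction and comparison with the smallest p, nuclear and mt- apart, the 13 mt- genes and the isoform sets. Other genes were named after their values were seen. Alternatives were DESeq2 1.42.0, median-of-ratios scaling, scaling without mt- genes, no filter, only the groups compared, the replicate number as a block and leaving out each library. Length-corrected offsets and summed nuclear copies were added after seeing the data. Estimated counts leave counting error small for most members, and it is largest for genes near 0 such as Cox8c and Cox7b2. Promoter windows came from RefSeq.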

Additional observations from a re-analysis of the deposited data

How the results depend on the processing

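Median-of-ratios scaling and scaling without the mt- genes kept all 60 counts of called members within 1.5 times. With DESeq2, nuclear calls were 1 each for diet in livers of females and males at 2 weeks, 14 and 2 for sex in RD livers at 2 and 12 weeks, 18 for diet in fat of females at 2 weeks, 1 and 5 for sex in RD fat at 2 and 12 weeks, and 1 each over time in fat of HFD and RD females. DESeq2 mt- calls were 1 for diet in livers of 12-week females, 12 and 1 for sex in HFD and RD livers at 12 weeks, 1 over time in livers of HFD females, 3 and 7 for diet in fat of 2-week females and 12-week males, 7 and 4 for sex in RD fat at 2 weeks and HFD fat at 12 weeks, and 5 over time in fat of HFD males. With no filter, calls were 1 nuclear for sex in HFD livers at 2 weeks, 4 nuclear and 0 mt- over time in livers of HFD males, and 1 mt- over time in fat of HFD males. This setting moved the median of all genes for liver over fat to -0.28 on HFD and -0.30 on RD. With length-corrected offsets, calls were 6 nuclear and 4 mt- for sex in HFD livers at 12 weeks, 14 nuclear over time in livers of HFD males, 3 and 34 nuclear for diet in fat of 12-week females and males, 2, 2 and 3 nuclear for sex in fat on HFD and RD at 2 weeks and RD at 12 weeks, 1 nuclear over time in fat of HFD females, and 3 nuclear and 1 mt- over time in fat of HFD males. Under these offsets Cox6a1 (0.042) and Cox8a (0.027) in fat of 12-week males, and Cox7a2 for liver over fat on RD (0.17), changed sign, and the cause was not tested. With nuclear copies summed, mt- calls were 0 over time in HFD males in either tissue and 2 for sex in RD fat at 2 weeks.

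With only the groups compared, which leaves fewer libraries to estimate the spread, nuclear calls were 31, 0 and 2 for sex in RD and HFD livers at 2 weeks and RD livers at 12 weeks, 0 over time in livers of HFD males, and 1 and 9 for diet in fat of 12-week females and males. Calls of mt- genes were 1 for sex in RD livers at 12 weeks, 2 over time in livers of HFD males, and 1 and 2 for sex in RD fat at 2 weeks and HFD fat at 12 weeks. With the replicate block, 1 nuclear and 2 mt- genes were called for diet in fat of 12-week males. The nuclear gene was Cox6a2, higher on HFD at 2.82 (edgeR adjusted p = 0.0281). The mt- genes were mt-Co2 and mt-Co3, lower at -1.81 and -1.95. The labels do not say whether same-numbered samples belong together. Deviations of same-numbered 12-week males on HFD and RD correlated at -0.14, 0.13 and 0.24 in liver and -0.01, 0.08 and 0.16 in fat. By number, 12 of 24 liver and fat pairs were best matched. Such correlations cannot show that liver and fat of the same number came from different animals. With filtered genes without Alb as the denominator, the mt- share was 9.04% in RD females at 12 weeks and 10.2% at 2 weeks in liver.

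Leaving out 1 library at a time, nuclear calls ranged from 8 to 75 for diet in fat of 12-week males, 0 to 7 for diet in fat of 2-week females, 2 to 8 and 0 to 9 for sex in RD and HFD livers at 2 weeks, 0 to 1 for sex in HFD livers and 0 for sex in RD livers at 12 weeks, 0 to 4 over time in livers of HFD males, 0 to 31 for sex in RD fat at 12 weeks, 0 to 1 for sex in HFD fat at 2 weeks, 0 to 1 over time in fat of HFD females and of HFD males, and 0 to 5 for the interaction in fat at 12 weeks. Calls of mt- genes ranged from 2 to 6 for diet in fat of 12-week males, 3 to 10 and 0 to 1 for sex in HFD and RD livers at 12 weeks, 0 to 1 for diet in livers of 12-week males, 0 to 1 for the interaction in liver at 12 weeks, 0 to 1 over time in livers of HFD males and 1 to 2 in fat of HFD males. With 3 libraries a group, calls rest on a spread shared over 24 libraries, and low genes such as Cox6a2 on few counts.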
